A study of Mus musculus with 6 samples.

Results

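Complement components and regulators were described across glomerular RNA sequencing libraries as a set of 9 genes, C3, C4b, Cfb, Cfd, Masp1, Cfi, Serping1, Cd55 and Cr1l. Members were found by gene symbol, 9 of the 54838 gene identifiers in each library. Of the 9, 8 passed the filter on low counts and were among the 17086 genes tested, and Cfd did not pass. Glomeruli, the filtering units of the kidney, had been isolated from mice aged 3 weeks. The 3 libraries labelled CTRL (157, 162 and 163) have the genotype wild type, and the 3 labelled KO (146, 147 and 148) the genotype bPIX -/-. Per the series' title the deficiency is confined to podocytes, the epithelial cells that wrap the glomerular capillaries. The gene for bPIX is Arhgef7, whose product activates Rac1 and Cdc42. The driver of the deletion and the way the glomeruli were isolated are not stated in the labels. The deposited file of each library is named for the other group, so every direction below rests on the sample labels, and if the file names were right each sign would turn. The series' design gives 3 mice per group, so the libraries are taken as separate animals. Below, CTRL and KO libraries are those so labelled, values for single libraries follow the order 157, 162, 163 and 146, 147, 148, and a log2 fold change is KO minus CTRL.

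Complement is a cascade of plasma and cell-surface proteins in which proteases cleave C3, whose fragment C3b then tags surfaces for uptake and starts the terminal lytic complex. The classical and lectin routes reach C3 through C4 and C2, the alternative route through factors B and D, and host cells hold the cascade in check with soluble and membrane-bound inhibitors. Liver makes most of the circulating proteins, while kidney epithelium makes some of them locally, and the glomerulus is a known site of complement deposition in disease.

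Gene counts totalled 39841396 to 51917945 per library. Arhgef7, the targeted gene, was counted 3956, 3582 and 3915 times in the CTRL libraries and 7837, 3712 and 3903 times in the KO libraries (log2 fold change 0.17, SE 0.17, edgeR adjusted p = 0.544). The value of Arhgef7 was -0.07 without KO 146 (edgeR adjusted p = 0.488), and -0.45 and -0.41 with the mean of the proximal tubule or of the endothelial and mesangial markers as a covariate, here called the tubule and the glomerular covariate (edgeR adjusted p = 0.0733 and 0.0798). Its direction thus depended on the setting and was called in none of these, and a podocyte deletion leaves the gene in other cells, so these counts do not settle the labels. edgeR called 101 genes higher and 72 lower in the KO libraries at an adjusted p below 0.05, 1.01% of the genes tested, and 114 and 50 with scaling by library totals. Over all tested genes the median log2 fold change was -0.006, and 0.132 with that scaling. Podocyte marker genes, led by Nphs1, had a list mean of 5.72 to 6.0 log2 CPM (CPM, counts scaled to 1e+06 reads per library) in the CTRL libraries and 6.82 to 8.52 in the KO libraries. Proximal tubule markers, led by Lrp2 and Cubn, had a list mean of 9.84 to 9.92 and 8.84 to 9.53. Both cell types were thus present in every library, at marker levels that did not overlap between the groups, and fewer cells of a type cannot be told apart from less RNA per cell. Summed, the tubule markers reached 33710 to 34750 CPM in the CTRL and 15830 to 26950 CPM in the KO libraries. The podocyte markers summed to less in every library, 1621 to 1905 and 3363 to 11020 CPM. The complement levels below are thus those of a mixed preparation and not of glomerular cells alone.

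Complement genes differed in direction. The inhibitors Serping1 and Cd55 had higher values in every KO library than in any CTRL library, with means 2.51-fold and 2.25-fold higher. C3 and the alternative pathway protease gene Cfb had lower values in every KO library, and Cfi, Cr1l, C4b and Masp1 had log2 fold changes between -0.19 and 0.28. No member passed the edgeR threshold over all tested genes. The median log2 fold change of the 8 tested members was 0.11, against -0.01 for all tested genes.

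**Figure D1:**
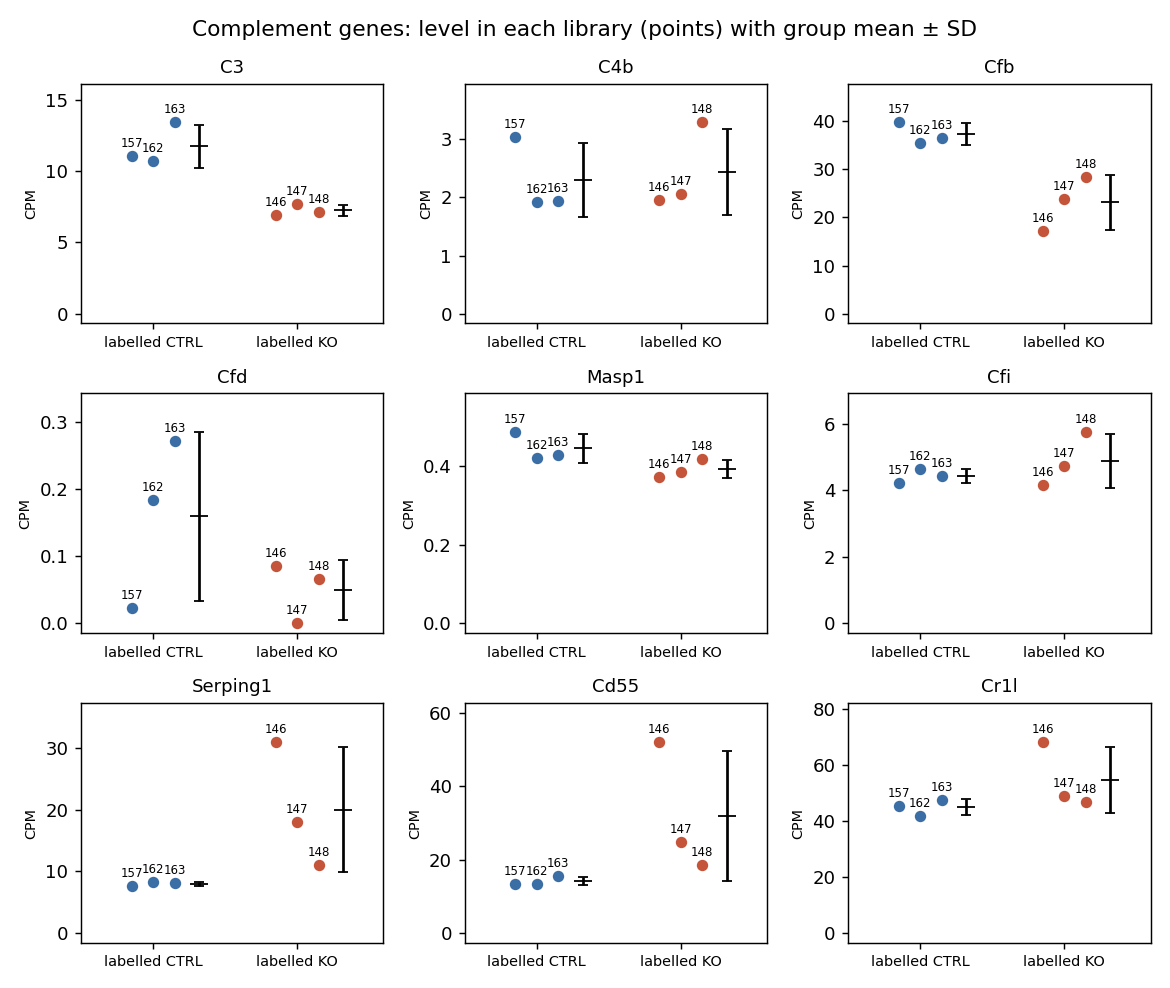
Each panel shows the level of 1 complement gene in CPM, with 1 point per library, numbered by animal, and the group mean ± SD (n = 3) as a black bar. Serping1 and Cd55 lie higher in the KO libraries, with KO 146 on top, while C3 and Cfb lie lower there and C4b, Cfi and Cr1l overlap between the groups.

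C3 encodes the protein on which all routes converge and lies on chromosome 17 (ENSMUSG00000024164, 57203970 to 57228136, minus strand, GRCm38). Its level was 11.0, 10.7 and 13.5 CPM in the CTRL libraries and 6.95, 7.70 and 7.11 CPM in the KO libraries. The KO libraries were all lower and lay close together, with a mean of 7.25 ± 0.40 against 11.8 ± 1.5 CPM (SD, n = 3 each). The log2 fold change was -0.70 (SE 0.13, edgeR adjusted p = 0.0655). Without KO 146 it was -0.67, with an edgeR adjusted p of 0.0108, and without KO 148 it was -0.69, with 0.0321. In these fits edgeR called 17.2% and 18.3% of all genes. Without CTRL 157, CTRL 162, CTRL 163 or KO 147 the edgeR adjusted p of C3 was 0.261, 0.212, 0.221 and 0.139. C4b encodes complement C4, the central component of the classical and lectin routes (ENSMUSG00000073418, chromosome 17, 34728380 to 34743882, minus strand). It stood at 3.04, 1.92 and 1.94 CPM in the CTRL libraries and at 1.97, 2.05 and 3.30 CPM in the KO libraries. The groups overlapped, each with 1 library above the rest (log2 fold change 0.08, SE 0.29, edgeR adjusted p = 0.873), and with the tubule and the glomerular covariate the log2 fold change was 0.70 and 0.64 (edgeR adjusted p = 0.399 and 0.419). C4b has a close copy, C4a, and reads that fit both are missing from its counts.

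Cfb encodes factor B, which joins C3b to form the convertase of the alternative pathway (ENSMUSG00000090231, chromosome 17, 34856374 to 34862518, minus strand). Its level was 39.9, 35.5 and 36.6 CPM in the CTRL libraries and 17.1, 23.8 and 28.4 CPM in the KO libraries. All 3 KO libraries were lower, and KO 146 was the lowest of them. The mean went from 37.3 ± 2.28 to 23.1 ± 5.68 CPM (mean ± SD, n = 3 each), a log2 fold change of -0.69 (SE 0.18, edgeR adjusted p = 0.0793). Of its 2825 exonic bases, 2246 (79.5%) also belong to Gm20547, an annotated readthrough gene on the same strand that has 0 counts in all 6 libraries. Reads from those bases may have been set aside as ambiguous, so the level of Cfb may be understated in every library.

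Cfd encodes factor D, the protease that cleaves factor B and that fat cells make in quantity (ENSMUSG00000061780, chromosome 10, 79890853 to 79892655, plus strand). It was counted 1, 7 and 12 times in the CTRL libraries and 5, 0 and 3 times in the KO libraries. The sums of 20 and 8 counts have exact Poisson 95% intervals of 12.2 to 30.9 and 3.5 to 15.8, which overlap and cover counting error only. The 0 in KO 147 allows a level of up to 0.0724 CPM (3 counts). The adipocyte markers Adipoq and Plin1 had at most 4 and 10 counts in any library, 7 of the 10 adipocyte markers were at 0 in some library, and Adipoq was counted 1, 1 and 4 times in the CTRL libraries and 0 times in every KO library. The summed level of the list, held by Fabp4, Car3 and Scd1, was 75.7 to 101.5 CPM in the CTRL libraries and 49.8 to 100.2 CPM in the KO libraries. Of these 3 tested markers edgeR called 1, Car3, which fell by 2.21 on the log2 scale (edgeR adjusted p = 0.0499), while Fabp4 had a log2 fold change of 1.48 (0.0755) and Scd1 of -0.18. With CTRL 157, CTRL 162, CTRL 163 or KO 147 left out Car3 was no longer called, at log2 fold changes of -1.86, -2.33, -2.39 and -2.40 and edgeR adjusted p values of 0.196, 0.183, 0.162 and 0.139. Nor was Car3 called with scaling by library totals (edgeR adjusted p = 0.0509), no count filter (0.104) or limma-voom (0.0558). With the tubule and the glomerular covariate its log2 fold change was -1.23 and -1.37 (edgeR adjusted p = 0.458 and 0.47). In the other settings, among them DESeq2, Car3 was called. The part of fat cells in the counts of Cfd was not tested. Masp1 encodes a protease of the lectin pathway (ENSMUSG00000022887, chromosome 16, 23449417 to 23520815, minus strand) and was counted only 21, 16 and 19 times in the CTRL libraries and 22, 16 and 19 times in the KO libraries. After scaling, its levels were 0.420 to 0.488 CPM and 0.373 to 0.418 CPM without overlap (log2 fold change -0.19, SE 0.22, edgeR adjusted p = 0.642). At these counts the difference between the groups was not detectable.

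Among the soluble inhibitors, Serping1 encodes C1 inhibitor, a serpin that inactivates C1r, C1s and the lectin pathway proteases (ENSMUSG00000023224, chromosome 2, 84765387 to 84775444, minus strand). It stood at 7.58, 8.22 and 8.11 CPM in the CTRL libraries and at 31.0, 18.0 and 11.0 CPM in the KO libraries. The KO libraries were all higher and spread widely, from just above the highest CTRL library to several times that level. The mean went from 7.97 ± 0.34 to 19.98 ± 10.2 CPM (mean ± SD, n = 3 each), a log2 fold change of 1.33 (SE 0.35, edgeR adjusted p = 0.0799). Without KO 146 the log2 fold change was 0.85 (SE 0.20, edgeR adjusted p = 0.0283). Cfi encodes factor I, the protease that degrades C3b and C4b with the help of cofactors (ENSMUSG00000058952, chromosome 3, 129835884 to 129875332, plus strand). Its level was 4.23, 4.65 and 4.43 CPM in the CTRL libraries and 4.15, 4.73 and 5.77 CPM in the KO libraries. These ranges overlapped (log2 fold change 0.14, SE 0.16, edgeR adjusted p = 0.605). With either marker covariate the log2 fold change of Cfi was 0.49 (edgeR adjusted p = 0.297 and 0.279).

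Of the membrane inhibitors, Cd55 encodes decay-accelerating factor, which breaks up C3 convertases on the cell's own surface (ENSMUSG00000026399, chromosome 1, 130439027 to 130462744, minus strand). Its level was 13.5, 13.5 and 15.5 CPM in the CTRL libraries and 52.1, 24.8 and 18.7 CPM in the KO libraries. The groups did not overlap, and KO 146 again held the highest value. Gm16083, on the opposite strand, shares 102 exonic bases with Cd55, and with the strand setting unknown reads of the pair cannot be told apart there. The mean went from 14.2 ± 1.13 to 31.9 ± 17.8 CPM (mean ± SD, n = 3 each), a log2 fold change of 1.17 (SE 0.37, edgeR adjusted p = 0.101). Without KO 146 the log2 fold change was 0.61 (edgeR adjusted p = 0.0165). Cr1l encodes Crry, a rodent membrane protein that combines decay acceleration with cofactor activity (ENSMUSG00000016481, chromosome 1, 195097382 to 195131586, minus strand). It stood at 45.5, 42.0 and 47.6 CPM in the CTRL libraries and at 68.4, 49.1 and 46.7 CPM in the KO libraries. Only KO 146 stood apart, KO 148 lay inside the CTRL range, and the log2 fold change was 0.28 (SE 0.16, edgeR adjusted p = 0.268), or 0.08 without KO 146.

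RefSeq promoter sequences on GRCm38.p6 were matched for 4 of the 9 genes, C3, Cfd, Cd55 and Cr1l. Those of C3 and Cd55, which had values on opposite sides of the CTRL libraries without overlap, are printed from 250 bases before to 20 after the annotated start, in gene orientation, with motif matches in capitals. The C3 window is chr17:57228117-57228386 and the Cd55 window chr1:130462725-130462994, both on the minus strand.
C3: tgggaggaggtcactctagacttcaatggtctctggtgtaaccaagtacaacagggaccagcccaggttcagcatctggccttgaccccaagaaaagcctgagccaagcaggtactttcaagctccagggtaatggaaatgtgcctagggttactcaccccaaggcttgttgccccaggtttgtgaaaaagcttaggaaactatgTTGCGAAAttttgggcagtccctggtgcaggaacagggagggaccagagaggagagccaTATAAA
Cd55: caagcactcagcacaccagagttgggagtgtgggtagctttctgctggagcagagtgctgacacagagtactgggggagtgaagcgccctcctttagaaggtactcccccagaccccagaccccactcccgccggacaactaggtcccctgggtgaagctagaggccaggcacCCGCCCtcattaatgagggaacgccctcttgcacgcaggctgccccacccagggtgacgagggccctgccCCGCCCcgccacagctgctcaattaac
Motifs were searched on both strands, and no matches overlapped each other. They were the core of the interferon response element, GAAANNGAA, the GAS element of STAT factors, TTCNNNGAA, and a core of the NF-kB element, GGGANTTTC. Further motifs were the C/EBP element, TTGCNNAA, the AP-1 element, which reads TGANTCA, the Sp1 box, which reads GGGCGG, and the TATA box, which reads TATAAA. C3 held 1 C/EBP match beginning 45 bases before the start and a TATAAA beginning at base 15 after it. Cd55 held the Sp1 letters at 2 places, in reverse orientation, beginning 77 and 7 bases before the start. Among 32851 RefSeq windows of the same length, 10.1% held the C/EBP letters, 12.9% TATAAA and 34.1% the Sp1 letters. The interferon, GAS, NF-kB and AP-1 letters were in 7.76%, 7.58%, 1.02% and 7.23% of windows and in neither of these. A match is a run of letters and not a bound site.

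Levels can be compared between genes once scaled to the length of the merged exons, as CPM per kilobase (RPKM). In the libraries labelled CTRL the order of mean level was Cfb at 13.2, Cr1l at 4.35, Serping1 at 3.43, Cd55 at 2.92, C3 at 2.28, Cfi at 2.0, C4b at 0.404, Cfd at 0.173 and Masp1 at 0.0453 RPKM. In this order C3 overlapped with Cfi and Cfd with Masp1 across libraries, and the other neighbours were separated. In the KO libraries the order was Serping1 at 8.6, Cfb at 8.18, Cd55 at 6.57, Cr1l at 5.29, Cfi at 2.20, C3 at 1.41, C4b at 0.428, Cfd at 0.0545 and Masp1 at 0.0399 RPKM. Each of the first 4 overlapped with the next, apart from Cr1l and Cfi, and Cfd again overlapped with Masp1. Scaled to its full exon length, Cfb thus stood clear of all other members in the CTRL libraries and not in the KO libraries. That length includes the 79.5% shared with Gm20547, whose reads may be missing. The level of Cfb may thus be understated in both orders, and its place in the KO order is uncertain. The log2 ratio of the length-scaled levels of Cd55 to C3 was 0.28 to 0.42 in the CTRL libraries and 2.99, 1.77 and 1.48 in the KO libraries, without overlap. That of Cfb to C3 was 2.54 ± 0.21 and 2.51 ± 0.35 (SD, n = 3 each) and overlapped, and its size may be understated for the same reason.

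Members whose groups did not overlap were 5 of 8, C3, Cfb, Masp1, Serping1 and Cd55, or 62.5%, beside 41.5% of all tested genes. Masp1 is among the 5 only through scaling, since its raw counts of 16 to 22 per library overlapped between the groups. The edgeR fit called 0 of the 8, beside 1.01% of all tested genes, and limma-voom called 0, beside 0.72%. At an unadjusted p below 0.05 edgeR had 2 members higher and 2 lower, 4 of 8 beside 29.3% of all tested genes. DESeq2 called the same 4, Serping1 (adjusted p = 0.00281) and Cd55 (0.0124) higher and C3 (0.000326) and Cfb (0.00951) lower, beside 17.3% of all tested genes. edgeR also called these 4 without KO 146, beside 17.2% of genes, and without KO 148, beside 18.3%. Without CTRL 157, CTRL 162, CTRL 163 or KO 147 it called 0 of 8. With no count filter it called C3 and Cfb lower, 2 of 8 beside 2.72% of genes.

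**Figure D2:**
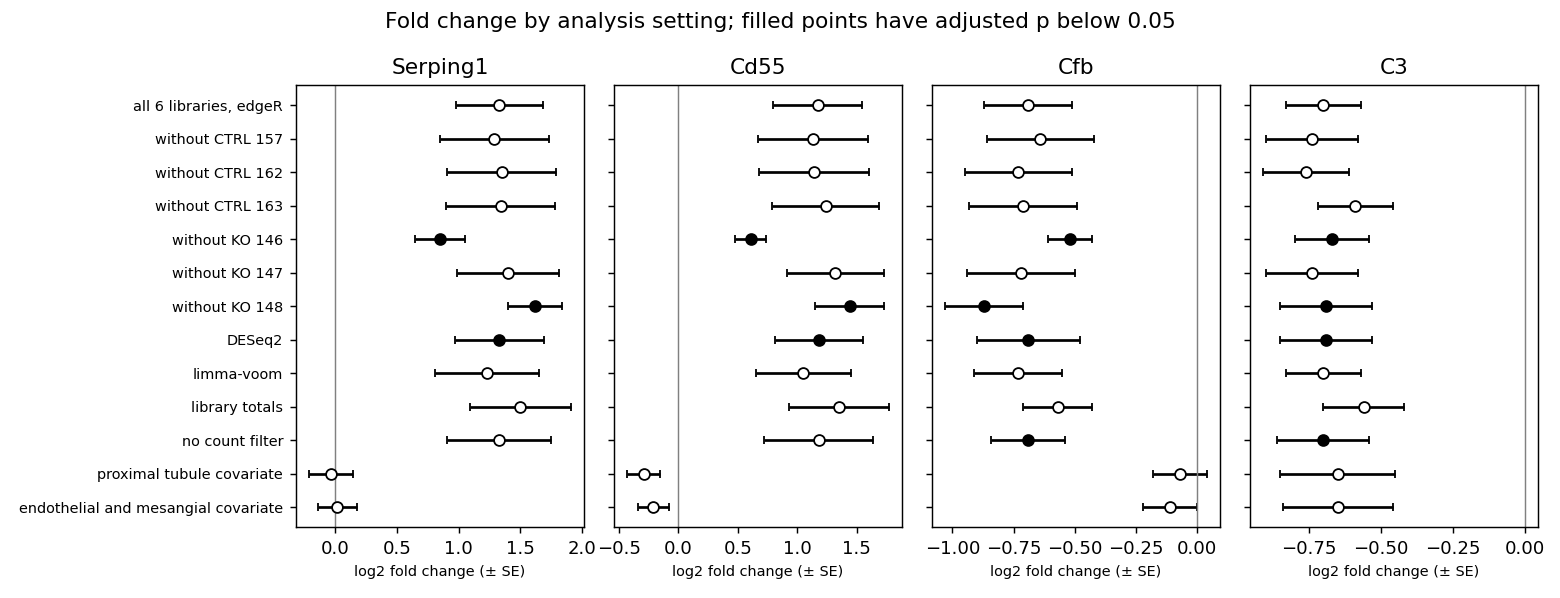
The log2 fold change (± SE, KO minus CTRL) of Serping1, Cd55, Cfb and C3 is plotted for the edgeR fit to all 6 libraries and for 12 other settings, with filled points where the adjusted p was below 0.05. With a cell type covariate Serping1, Cd55 and Cfb lie near 0 or below it, at -0.29 to 0.02. C3 is at -0.65 with either covariate (edgeR adjusted p = 0.159 and 0.122). The covariates did not overlap between the groups, so these fits rest on the spread within groups and cannot separate group from marker level.

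Marker lists of the cells in the preparation differed between the same libraries. The 3 KO libraries had glomerular endothelial list means, led by Ehd3 and Emcn, of 8.0, 6.85 and 6.25 log2 CPM in 146, 147 and 148 against 5.4 to 5.53, so the library with the highest Serping1 and Cd55 was also that with the highest glomerular markers. All 18 podocyte, 15 endothelial and 14 mesangial markers had positive log2 fold changes, with medians of 2.03, 1.74 and 1.88, or 1.27, 1.08 and 0.93 without KO 146, and edgeR called 0 of them. The proximal tubule list mean was 8.84, 9.36 and 9.53 log2 CPM in the KO libraries, and Cfb was lowest in the same library as that list. Its 18 markers were all negative, with a median of -0.56, and 1 was called lower. The loop, distal and collecting duct list, led by Umod and Slc12a1, had the same order among the KO libraries. Its means were 5.97, 6.37 and 6.55 log2 CPM there, against 6.63 to 6.8 in the CTRL libraries. All 15 of its tested markers were negative, with a median of -0.41, and edgeR called 0. Cfb was thus lowest in the same library as both lists, and the part of either in its values was not tested. Over all tested genes edgeR called 1.01%, in either direction.

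With the proximal tubule list mean as a covariate, the log2 fold change of Serping1 was -0.03 (edgeR adjusted p = 0.96), of Cd55 -0.29 (0.335), of Cr1l -0.24 (0.333) and of Cfb -0.07 (0.812). With the endothelial and mesangial list mean the values were 0.02 (0.969), -0.21 (0.456), -0.22 (0.378) and -0.11 (0.69). C3 kept a log2 fold change of -0.65 (SE 0.20) with the first covariate and -0.65 (SE 0.19) with the second, with edgeR adjusted p values of 0.159 and 0.122. Neither covariate overlapped between the groups, so these fits rest on the spread within groups. Among the KO libraries KO 146 was the lowest both for C3 and for the tubule mean, while KO 147 was the highest for C3 and KO 148 for the tubule mean.

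**Figure D3:**
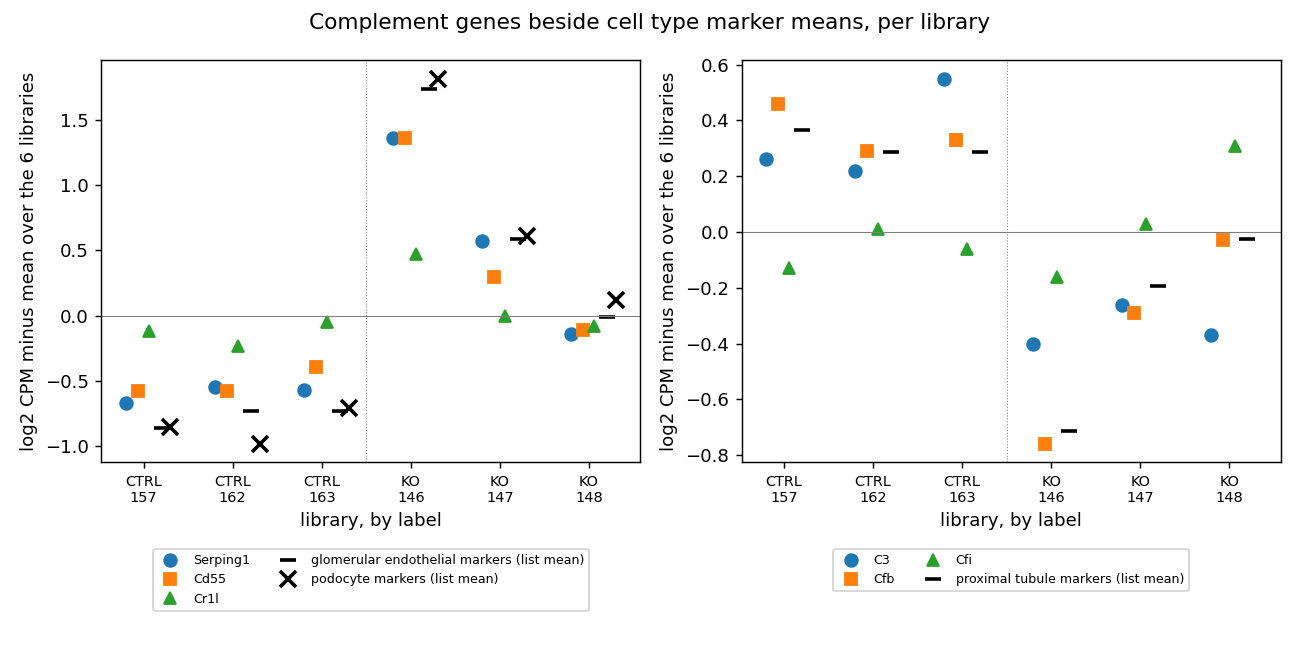
Points show log2 CPM minus the mean over the 6 libraries for complement genes, with list means of cell type markers in black, for each library by its label. On the left Serping1 and Cd55 are highest in KO 146, as are the endothelial and podocyte means, which lie above both genes there. Cr1l is at 0.47, 0 and -0.08 in KO 146, 147 and 148. On the right Cfb lies beside the proximal tubule mean, while C3 is at -0.40, -0.26 and -0.37 in KO 146, 147 and 148. Cfi is at -0.16, 0.03 and 0.31 in the same libraries.

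Markers of other possible sources were measured in the same libraries. For scale, 8419 of the 17086 tested genes had a positive log2 fold change and edgeR called 1.01% of all tested genes. At that share, 0 or 1 called in a short list says little. The macrophage list, led by Adgre1 and Cd68, had a summed level of 86.8 to 97.3 CPM in the CTRL libraries and 87.3 to 137.4 CPM in the KO libraries. Its 12 tested members had a median log2 fold change of 0.07, with 9 positive, 0 called and none at 0 in any library. In 2 of the 12, Mrc1 and Cd163, every KO library was above every CTRL library, beside 21.9% of all tested genes. Their log2 fold changes were 1.73 and 1.37, and Mrc1 reached 40.6 CPM in KO 146. The other 10 overlapped, among them Adgre1 at -0.15 and Cd68 at 0.06. The fibroblast list, led by Col1a1 and Col1a2, summed to 144.9 to 161.5 CPM and 251.8 to 479.8 CPM, with 7 of 9 tested members positive and 1 called higher. All 23 interferon response genes, led by Ifit1 and Ifit2, were positive with a median of 0.94. The median was 0.76 without KO 146, and 0.23 and 0.26 with the tubule and the glomerular covariate. In 21 of the 23 every KO library was above every CTRL library, beside 21.9% of all tested genes, and edgeR called 0. Genes of NF-kB and acute-phase responses, led by Nfkbia and Nfkb1, summed to 115.2 to 129.4 CPM and 148.7 to 242.2 CPM, with 12 of 13 tested positive and 0 called. Their median log2 fold change was 0.29, or 0.11 without KO 146, and the groups overlapped for 8 of the 13. Of the 7 tested hepatocyte markers, 5 had negative log2 fold changes, 2 of them at an unadjusted p below 0.05, and edgeR called 0. Alb, the albumin gene, stood at 1.47 to 1.53 CPM and 0.729 to 1.01 CPM without overlap (log2 fold change -0.78, edgeR adjusted p = 0.0778), and Apoa1 had 0.32. Their summed level, 104.0 to 164.4 CPM and 115.5 to 232.1 CPM, was nearly all Ttr, which had 0.49 (edgeR adjusted p = 0.328). The part of any of these lists in the complement values was not tested.

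The wider pathway was read from a list of 48 other complement genes, of which 28 were tested, 3 were at 0 in all 6 libraries and 20 in all did not pass the filter. edgeR called 0 in either direction, and limma-voom 0. At an unadjusted p below 0.05 edgeR had 4 higher and 4 lower, 8 of 28 and close to the 29.3% of all tested genes. Log2 fold changes were positive for 14 and negative for 14, with a median of -0.04, or 0.10 with scaling by library totals. The groups did not overlap for 10 of the 28, 6 higher and 4 lower, beside 41.5% of all tested genes, a share no greater than the background. DESeq2 called 6, beside 17.3% of all tested genes: C1s1, C1ra and Cd93 higher, and Mbl1, C8g and C2 lower, of which C1ra and Mbl1 are named after their values were seen.

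**Figure D4:**
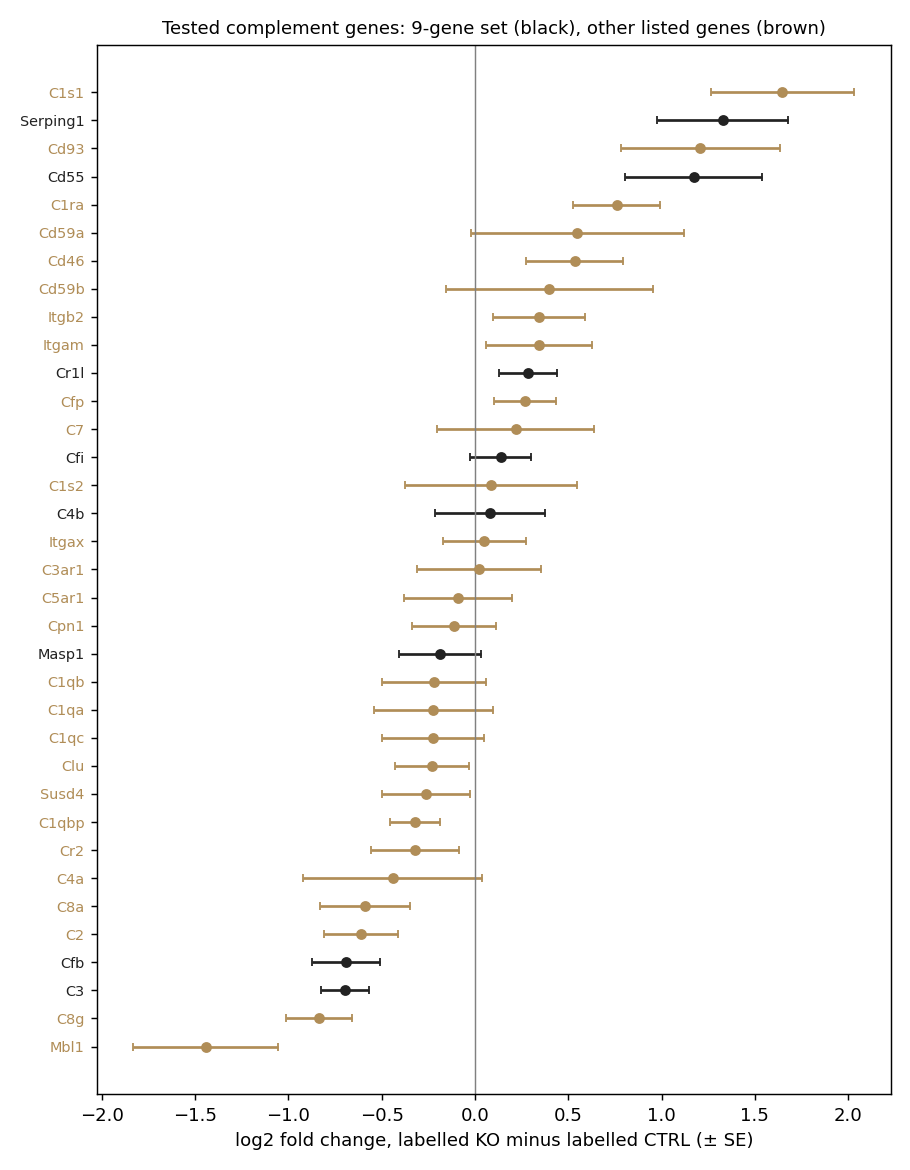
The log2 fold change (± SE, KO minus CTRL, edgeR) is shown for the 8 tested members in black and for other tested complement genes in brown. C1s1 and Serping1 are the highest at 1.65 and 1.33, Mbl1 and C8g the lowest at -1.44 and -0.83.

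In the recognition group, the C1q genes C1qa and C1qb, typical of macrophages, had log2 fold changes of -0.22 and -0.22 (edgeR adjusted p = 0.666 and 0.627). Without KO 146 they were 0.05 and -0.01, without KO 147 -0.61 and -0.56, and with the tubule covariate 0.62 and 0.31, so their sign rested on single libraries and settings. C1s1 encodes C1s, the protease that Serping1's product blocks, and shares 576 exonic bases with Gm16567 on the opposite strand. Its level was 8.46, 8.88 and 9.26 CPM in the CTRL libraries and 45.5, 22.7 and 15.1 CPM in the KO libraries, without overlap (log2 fold change 1.65, SE 0.39, edgeR adjusted p = 0.0755). Without KO 146 the log2 fold change of C1s1 was 1.08 (edgeR adjusted p = 0.00673), and with the tubule and the glomerular covariate 0.12 and 0.19 (0.737 and 0.527). The log2 ratio of the length-scaled levels of Serping1 to C1s1 was 0.27 ± 0.04 in the CTRL libraries and -0.02 ± 0.11 in the KO libraries (SD, n = 3 each), also without overlap, so both genes had higher values in the KO libraries, the protease more so. The ratio of Serping1 to C1ra, the gene for C1r, went the other way, from 0.64 ± 0.02 to 1.13 ± 0.31.

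C2 encodes the classical pathway protease related to factor B and lies beside Cfb on chromosome 17 (34862604 to 34898265, minus strand), with 85 bases between the end of C2 and the start of Cfb. It stood at 22.5, 19.5 and 20.8 CPM in the CTRL libraries and at 10.6, 12.6 and 18.0 CPM in the KO libraries (log2 fold change -0.61, SE 0.20, edgeR adjusted p = 0.107), and the log2 fold change was -0.01 and -0.04 with the 2 covariates. The log2 ratio of the length-scaled levels of Cfb to C2 was 1.29 ± 0.03 and 1.21 ± 0.14 (SD, n = 3 each) and overlapped, so the neighbouring genes were lower by a like amount. C2 shares 42.8% of its exonic bases with the same readthrough gene as Cfb. In the terminal group C8g, which encodes a lipocalin-type subunit of C8, went from 13.4 ± 1.19 to 7.54 ± 1.56 CPM (mean ± SD, n = 3 each), a log2 fold change of -0.83 (SE 0.18, edgeR adjusted p = 0.0753), or -0.30 and -0.34 with the covariates. C8a had -0.59. C4a and Hc, the gene for C5, reached at most 27 and 7 counts in a library.

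Among the soluble regulators Clu, which encodes clusterin, an inhibitor of the terminal complex, was the most abundant complement gene on the list per length, at 98.4 ± 11.6 RPKM in the CTRL libraries and 83.8 ± 21.6 RPKM in the KO libraries (SD, n = 3 each), a log2 fold change of -0.23 (edgeR adjusted p = 0.464). Cpn1, a subunit of the carboxypeptidase that inactivates anaphylatoxins, had -0.11. Of the membrane regulators, Susd4 had -0.26 and Cd59a, a blocker of the terminal complex, 0.55 with an SE of 0.57. Of the receptors, C1qbp had -0.32 and Cd93, an endothelial surface protein, 1.21 (SE 0.43, edgeR adjusted p = 0.125). Without KO 146 Cd93 had 0.51 (edgeR adjusted p = 0.0202), Cd59a -0.22, Clu -0.08, Cpn1 0.09, Susd4 -0.05 and C1qbp -0.21. With the tubule covariate each of these 6 turned its sign, to -0.50 for Cd93, -0.84 for Cd59a, 0.32 for Clu, 0.58 for Cpn1, 0.47 for Susd4 and 0.10 for C1qbp. None of these was called, with edgeR adjusted p values in the same order of 0.198, 0.787, 0.463, 0.283, 0.288 and 0.718.

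Genes with the most similar profile were sought among 10867 protein-coding genes of at least 5 CPM, by the root mean square difference in log2 CPM over the 6 libraries after centring each gene on its mean. For C3 these were Ctbs (0.104), Slc6a18 (0.106) and Mfsd3 (0.115). The closest gene was Klf15 for Cfb (0.037), Ephx1 for Cd55 (0.039), Tmx3 for Cr1l (0.023) and Grip1 for Cfi (0.048). For C4b it was Palm3 (0.132), for Masp1 Elac2 (0.017) and for Cfd Mettl7a2 (0.543), where the low counts of Masp1 and Cfd set the profile in part. The candidates share libraries and groups with the members, so closeness over 6 libraries is a description of these values.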

How the data were processed

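RNA from isolated glomeruli was sequenced in 6 libraries, 3 labelled CTRL and 3 labelled KO, each named by its animal number. The authors deposited, for each library, unnormalized counts of reads per gene, as whole numbers. The tools listed, per the submitters' processing notes, are DESeq2, HTSeq 0.11.1, STAR 2.6.0 and fastp 0.19.5, with roles unstated, and the build listed is the human GRCh37 although all identifiers are mouse. The strand setting and the annotation release are unstated there. The 5 closing lines that name no gene were left out. They held 2.57% to 3.41% of records outside any feature, 1.55% to 1.79% ambiguous, 0.13% to 0.15% of low quality, 0.7% to 1.22% unaligned and 22.51% to 29.63% aligned to several places.

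Names, positions and merged exon lengths came from GENCODE M21 on GRCm38, which named 54809 of 54838 identifiers. Counts were tested in R 4.3.3 with edgeR 4.0.16 (TMM, filterByExpr by group with a minimum count of 10, robust quasi-likelihood F test), with Benjamini-Hochberg adjustment over all tested genes and a threshold of 0.05. SE is the size of the log2 fold change over the root of F. The script was tested on simulated data. CPM uses TMM library sizes, and log2 CPM a prior count of 2. Alternatives were DESeq2 1.42.0, limma-voom (limma 3.58.1), other scalings, no count filter, no robust option, 2 marker covariates and leaving out each library.

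The members, gene lists and tests were chosen with earlier results of these data known. Named were all 9 members, other complement genes that were called or among the 2 of highest length-scaled level in their role, the closest profiles (3 for C3, 1 for each other member), the first 2 markers of each list described, and Arhgef7. Some genes that this rule names are not reported here. Genes named outside this rule (C1ra, Mbl1, Cd59b, Fabp4, Car3, Scd1, Ttr, Mrc1, Cd163) were chosen after their values were seen.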

Additional observations from a re-analysis of the deposited data

How the results depend on the processing

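Over 14 alternatives to the edgeR fit of all 6 libraries, C3, Cfb and Masp1 kept a negative log2 fold change in each, at -0.76 to -0.56, -0.87 to -0.07 and -0.24 to -0.03. Serping1, Cd55 and Cr1l kept a positive one in all fits without a covariate, at 0.85 to 1.62, 0.61 to 1.44 and 0.08 to 0.44. Their signs turned with the proximal tubule covariate (-0.03, -0.29 and -0.24), and those of Cd55 and Cr1l with the endothelial and mesangial covariate (-0.21 and -0.22). With 1 library left out, C4b ran from -0.20 to 0.33 and turned without CTRL 162 (-0.04), CTRL 163 (-0.03) and KO 148 (-0.20), and Cfi ran from 0 to 0.24, its 0 being on the negative side at more decimals, without KO 148. With the tubule and the glomerular covariate C4b was at 0.70 and 0.64 and Cfi at 0.49 in both. The member median of 0.11 turned to -0.05 and -0.08 with the 2 covariates and ran from -0.10 (without KO 148) to 0.19 with 1 library left out. The median of the other complement genes turned to 0.10 with library totals, 0.11 and 0.15 with the covariates, and ran from -0.15 to 0.08 with 1 library left out, positive without CTRL 162 (0.08) and KO 146 (0.02). With the 2 covariates the macrophage median turned to -0.09 in both, and with the tubule covariate the mesangial median turned to -0.07 and the proximal tubule median itself to 0.04, the last by construction.

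Members called numbered 2 higher and 2 lower with DESeq2, where 17.3% of all tested genes were called, and 0 higher and 2 lower (C3 and Cfb) with no count filter, where 2.72% were. They ranged from 0 to 2 in each direction when 1 library was left out, above 0 only without KO 146 or KO 148, where 17.2% and 18.3% of all genes were called. Other complement genes called were 3 higher and 3 lower with DESeq2 and 2 lower with no count filter, beside the same 17.3% and 2.72% of all genes. With 1 library left out they numbered 0 to 3 in each direction, above 0 again only without KO 146 (3 higher, 1 lower) or KO 148 (3 higher, 3 lower). Genes called higher numbered 1989 with DESeq2, 497 with no count filter, 67 with limma-voom, 195 and 241 with the tubule and the endothelial and mesangial covariates, and 1 to 2266 with 1 library left out, against 101. Genes called lower numbered 964 with DESeq2, 463 with no count filter and 1 to 1147 with 1 library left out, against 72. No paired analysis was possible because the groups share no animal number. Depth limits Cfd and Masp1, with at most 12 and 22 counts in a library.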

Other observations

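Cd59a and Cd59b, near copies on chromosome 2 that encode membrane blockers of the terminal complex, shared an uneven pattern among the KO libraries. Cd59a stood at 100.2, 15.9 and 49.3 CPM in KO 146, 147 and 148 against 32.9 to 40.4 CPM in the CTRL libraries, and Cd59b at 4.15, 0.724 and 2.18 CPM against 1.47 to 1.98 CPM. KO 147 was thus the lowest of all 6 libraries for both genes and KO 146 the highest. Reads that fit both copies are missing from their counts.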
